A study of Homo sapiens with 27 samples.

Results

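CYB561A3, EPB41, UBA1, PMPCA and RNF10 are 5 genes whose transcript isoforms took up different shares of the gene's counts in RM82 cells labelled with an inhibitor of CDC-like kinases and in cells given the vehicle. They were selected on this difference: in a test of transcript usage over 1805 genes they ranked 4, 6, 9, 11 and 13 by p-value. The comparison between the groups is therefore given for them as a description, without a test. All transcripts listed for the 5 genes were taken, 93 of the 86362 listed transcripts that matched the annotation, from 5 of 18776 genes. Of these 93, 20 passed the filter on low counts and 73 did not.

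RM82 is a line of cultured Ewing sarcoma cells. The 3 libraries whose treatment label reads CLK1 came from cells treated for 1 day with SGC-CLK-1, which inhibits CDC-like kinases, and the control libraries came from cells given DMSO, the vehicle of the compound. Each group had 3 libraries of full-length cDNA, primed with oligo(dT), carrying unique molecular identifiers (UMIs) and sequenced on a nanopore instrument. The study states in general terms that its experiments were repeated independently, but the labels do not say that these replicates were separate cultures, and the p-values below measure the spread between these libraries, which may be technical. The summed count was 666702 in the first SGC-CLK-1 library, 362826 in replicate 2 and 373004 in replicate 3, and it was 416352, 523456 and 372876 in the 3 DMSO libraries. These are bulk samples, in which fewer cells and less RNA per cell cannot be told apart. Of the markers taken for this line, CD99, a surface protein of Ewing sarcoma cells, stood at 111 ± 12.2 CPM (counts scaled to a common library size, mean ± SD, n = 3) with SGC-CLK-1 and 161 ± 45.8 with DMSO, STEAP1 at 80.9 ± 16.3 and 99.6 ± 17.6, CCND1 at 499.6 ± 22.0 and 690.0 ± 123, and EWSR1 at 249 ± 39.3 and 171 ± 36.9. NR0B1 and PAX7 had too few counts to be tested. For NKX2-2 and FLI1 no listed transcript matched the annotation, so these markers have no values here.

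CDC-like kinases phosphorylate SR proteins, splicing factors that help the spliceosome recognise exons and introns. An intron that is not removed, an added exon or a shifted splice site can place a stop codon early in the reading frame, and transcripts of that kind are often degraded by nonsense-mediated decay (NMD). The 5 genes work in unrelated processes. CYB561A3 is a member of the cytochrome b561 family of membrane electron carriers and reduces ferric iron in lysosomes. EPB41 encodes protein 4.1R, which ties the spectrin and actin skeleton to the plasma membrane. UBA1 is the main enzyme that activates ubiquitin. PMPCA is the alpha subunit of the mitochondrial processing peptidase, which removes targeting presequences from imported proteins. RNF10 is a RING-type ubiquitin ligase that modifies proteins of the small ribosomal subunit.

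The isoforms differ by few events, and the reference sequence (GRCh38) at some of those events is given here because the shares below are read against them. Capitals mark exon bases and lower case marks intron bases. CYB561A3-221 joins its exon 4 at an acceptor that lies 169 bases inside the exon of the canonical transcript CYB561A3-201, and it keeps the intron that begins at the CYB561A3-201 donor shown. UBA1-209 uses an acceptor 130 bases inside an exon of the canonical transcript UBA1-201. PMPCA-205 reads through the PMPCA-201 donor shown. The windows are chr11:61353983-61354012, chr11:61353814-61353843 and chr11:61352965-61352994 on the minus strand, chrX:47205928-47205957, chrX:47206058-47206087 and chr9:136419097-136419126 on the plus strand.
CYB561A3-201 acceptor: ggcactactctctcctgcagCGTCACTGGT
CYB561A3-221 acceptor: aacctctactcccttcacagCTGGCTGGGC
CYB561A3-201 donor: TCTTCAGTTTgtgagtgcagtggggtcccc
UBA1-201 acceptor: gcactttcttaaccctttagAAGTTAAAGT
UBA1-209 acceptor: cgattttttccaaaacctagATGGCGTGGC
PMPCA-201 donor: CGTGGACACGgtaagtgcagtgtggcgcca

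**Figure D1:**
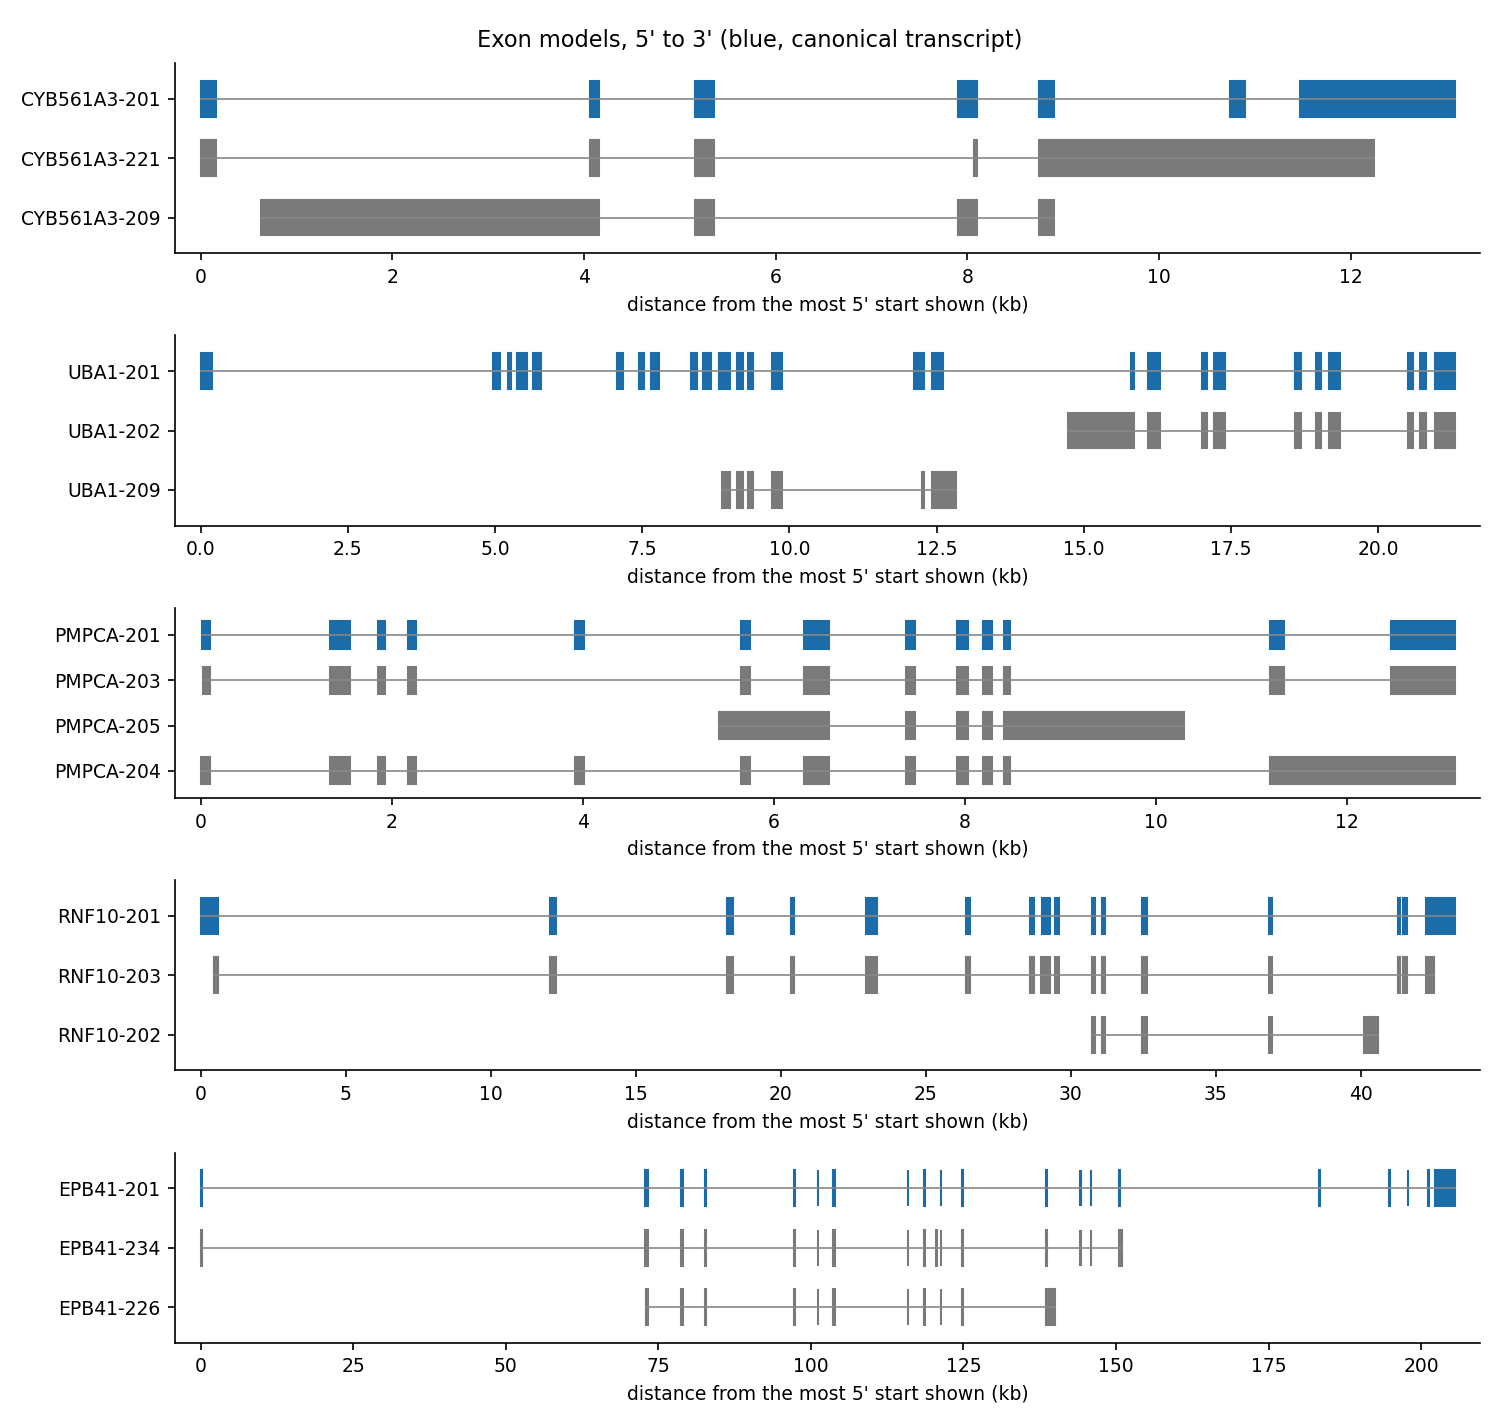
Exon models of the transcripts described, from the annotation, with boxes for exons and lines for introns. The horizontal axis is the distance in kb from the most 5′ start shown, and the canonical transcript of each gene is in blue. CYB561A3-221, CYB561A3-209, UBA1-202, PMPCA-205, PMPCA-204 and EPB41-226 have wide boxes that cover introns of the canonical transcript.

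CYB561A3 (ENSG00000162144, chr11:61348754-61362283, minus strand) had the widest difference in share among the named transcripts. Its most abundant isoform under DMSO, CYB561A3-221 (ENST00000546151), keeps both of the last introns, of 1837 and 568 bases, in 1 long last exon. CYB561A3-221 held 73.3%, 73.8% and 55.0% of the gene's counts in the DMSO libraries and 19.1%, 30.4% and 25.8% in the SGC-CLK-1 libraries. The groups did not overlap, and the mean share was 67.4% ± 10.7 (SD, n = 3) with DMSO and 25.1% ± 5.69 with SGC-CLK-1. The counts behind these shares were 44, 59 and 22 of 60, 80 and 40 with DMSO and 13, 7 and 8 of 68, 23 and 31 with SGC-CLK-1. The exact 95% intervals of the single libraries spanned 10.6% to 52.9% over the SGC-CLK-1 libraries and 38.5% to 83.9% over the DMSO libraries, and such intervals cover counting error only.

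CYB561A3-209 (ENST00000537364), which begins inside the canonical first intron and keeps the rest of it, had the opposite pattern. It held 33.8%, 47.8% and 32.3% of the counts in the SGC-CLK-1 libraries and 13.3%, 11.2% and 17.5% in the DMSO libraries. All 3 SGC-CLK-1 libraries lay above all 3 DMSO libraries. Its annotated 3′ end is the end of an exon and is marked as not found, so the molecules behind it may extend further. In CPM, CYB561A3-221 stood at 19.7 ± 1.29 with SGC-CLK-1 and 93.9 ± 29.3 with DMSO, a log2 fold change of -2.21 (SE 0.33). By contrast CYB561A3-209 stood at 30.0 ± 3.80 with SGC-CLK-1 and 18.7 ± 0.98 with DMSO, a log2 fold change of 0.77 (SE 0.39). The other 12 listed isoforms each held at most 6.62% of the pooled counts. The exons of CYB561A3-221 share 280 bases with TKFC, a gene on the opposite strand, and whether the counting used strand is not given in the sources used here.

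EPB41 (ENSG00000159023, chr1:28887091-29120046, plus strand) was the most abundant and the most divided of the 5 genes, with 38 listed isoforms, none of which reached 10% of the pooled counts. EPB41-234 (ENST00000648891) is annotated as a target of NMD and carries an exon that the canonical transcript lacks. Its last exon, of 635 bases, runs past a donor of EPB41-201 and ends in an intron. EPB41-234 held 10.3%, 9.39% and 12.1% of the gene's counts with DMSO and 1.90%, 4.82% and 4.24% with SGC-CLK-1. The groups did not overlap. Over the 4 listed EPB41 isoforms annotated as NMD targets the share was 18.9% ± 2.84 with DMSO and 9.85% ± 1.81 with SGC-CLK-1. EPB41-201 (ENST00000343067), the canonical protein-coding transcript, held 6.57%, 6.67% and 5.78% with DMSO and 8.42%, 12.7% and 9.75% with SGC-CLK-1. Its groups also did not overlap, in the opposite direction.

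The summed share of the protein-coding isoforms of EPB41 was higher with SGC-CLK-1, while their single mean shares went either way, 12 higher and 11 lower. The 23 listed as protein coding together held 53.1%, 54.5% and 53.8% of the counts in the DMSO libraries and 64.4%, 67.5% and 62.3% in the SGC-CLK-1 libraries. Isoforms that run to the last annotated end of the gene, at chr1:29120046 or less than 50 bases before it, held 26.7% ± 0.64 with DMSO and 37.6% ± 3.15 with SGC-CLK-1. EPB41-231, which also ends there, held 5.71% ± 0.61 and 8.79% ± 1.91. By contrast EPB41-226, whose last exon of 1408 bases runs into an intron and ends there, held 8.59% ± 2.03 with DMSO and 6.49% ± 1.55 with SGC-CLK-1, and its groups overlapped.

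UBA1 (ENSG00000130985, chrX:47190861-47215128, plus strand) showed lower shares of the short isoforms UBA1-202 and UBA1-209 and higher shares of UBA1-201 and UBA1-203, which span the gene. UBA1-202 (ENST00000377269) begins in an intron in the middle of the gene and runs to the last exon. It held 42.6%, 43.3% and 45.6% of the counts with DMSO and 36.7%, 16.3% and 21.1% with SGC-CLK-1. SGC-CLK-1 replicate 1 lay closest to the DMSO libraries, and the groups did not overlap. UBA1-209 (ENST00000490869) uses the inner acceptor shown above and ends in an intron, so that it covers only a middle stretch of the gene. It held 22.1%, 26.8% and 22.8% with DMSO and 9.38%, 14.0% and 10.5% with SGC-CLK-1, without overlap.

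The isoforms of UBA1 that span the gene were UBA1-201 (ENST00000335972) and UBA1-203 (ENST00000377351), which differ in the first exon. UBA1-201 held 16.2%, 14.4% and 12.3% with DMSO and 23.4%, 32.6% and 33.3% with SGC-CLK-1. UBA1-203 held 13.2%, 14.4% and 14.0% with DMSO and 22.7%, 32.6% and 33.3% with SGC-CLK-1. These are not independent values. The 2 transcripts share 3376 bases, 94.5% of UBA1-201, and their counts differed by at most 2 in any library, and since the mapping kept secondary alignments the split between them is uncertain. The last end of the gene, which UBA1-201, UBA1-202 and UBA1-203 share, held 72.1% ± 0.12 with DMSO and 84.0% ± 3.32 with SGC-CLK-1.

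PMPCA (ENSG00000165688, chr9:136410630-136427992, plus strand) differed mainly in 1 isoform. PMPCA-205 (ENST00000462616), annotated as a retained intron, starts in the middle of the gene and reads 1827 bases past the donor shown above. It held 24.0%, 19.7% and 33.3% of the counts with DMSO and 11.5%, 12.1% and 5.17% with SGC-CLK-1, and the groups did not overlap. The counts were low, 12, 14 and 13 against 9, 4 and 3. PMPCA-201 (ENST00000371717), the canonical transcript, held 34.0%, 36.6% and 28.2% with DMSO and 43.6%, 36.4% and 41.4% with SGC-CLK-1. PMPCA-203 (ENST00000399219), which lacks an exon of 95 bases at chr9:136414553-136414647 and is annotated as an NMD target, held 28.0%, 36.6% and 15.4% with DMSO and 33.3%, 36.4% and 39.7% with SGC-CLK-1. The groups overlapped for both. Every base of PMPCA-203 is also in PMPCA-201, so the split between them is uncertain too. PMPCA-204 (ENST00000444897) keeps the last intron but runs to the usual end, and held 11.7% ± 5.64 with DMSO and 11.1% ± 3.78 with SGC-CLK-1, a difference well within the spread of the libraries.

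RNF10 (ENSG00000022840, chr12:120533480-120577588, plus strand) had higher shares of RNF10-201 and RNF10-203 with SGC-CLK-1. RNF10-201 (ENST00000325954), the canonical transcript, held 15.3%, 18.1% and 14.3% with DMSO and 28.5%, 35.0% and 25.7% with SGC-CLK-1. RNF10-203 (ENST00000413266), with a later start, an earlier 3′ end and 1 exon that is 15 bases longer, held 18.6%, 17.0% and 14.3% with DMSO and 25.2%, 27.5% and 22.9% with SGC-CLK-1. In both, all SGC-CLK-1 libraries lay above all DMSO libraries. These 2 isoforms are not independent either. They share 2656 bases, 99.4% of RNF10-203, and their counts differed by at most 4 in any library, so the split between them is uncertain. The 5 isoforms that end at or near chr12:120576888 include RNF10-203. Together they held 36.1% ± 8.61 with DMSO and 39.3% ± 5.87 with SGC-CLK-1, and the groups overlapped. RNF10-202 (ENST00000366112), which ends in an exon inside a canonical intron, held 18.6%, 21.3% and 26.2% with DMSO and 8.13%, 7.50% and 20.0% with SGC-CLK-1. Here SGC-CLK-1 replicate 3 lay among the DMSO libraries, and the other 2 lay below them.

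**Figure D2:**
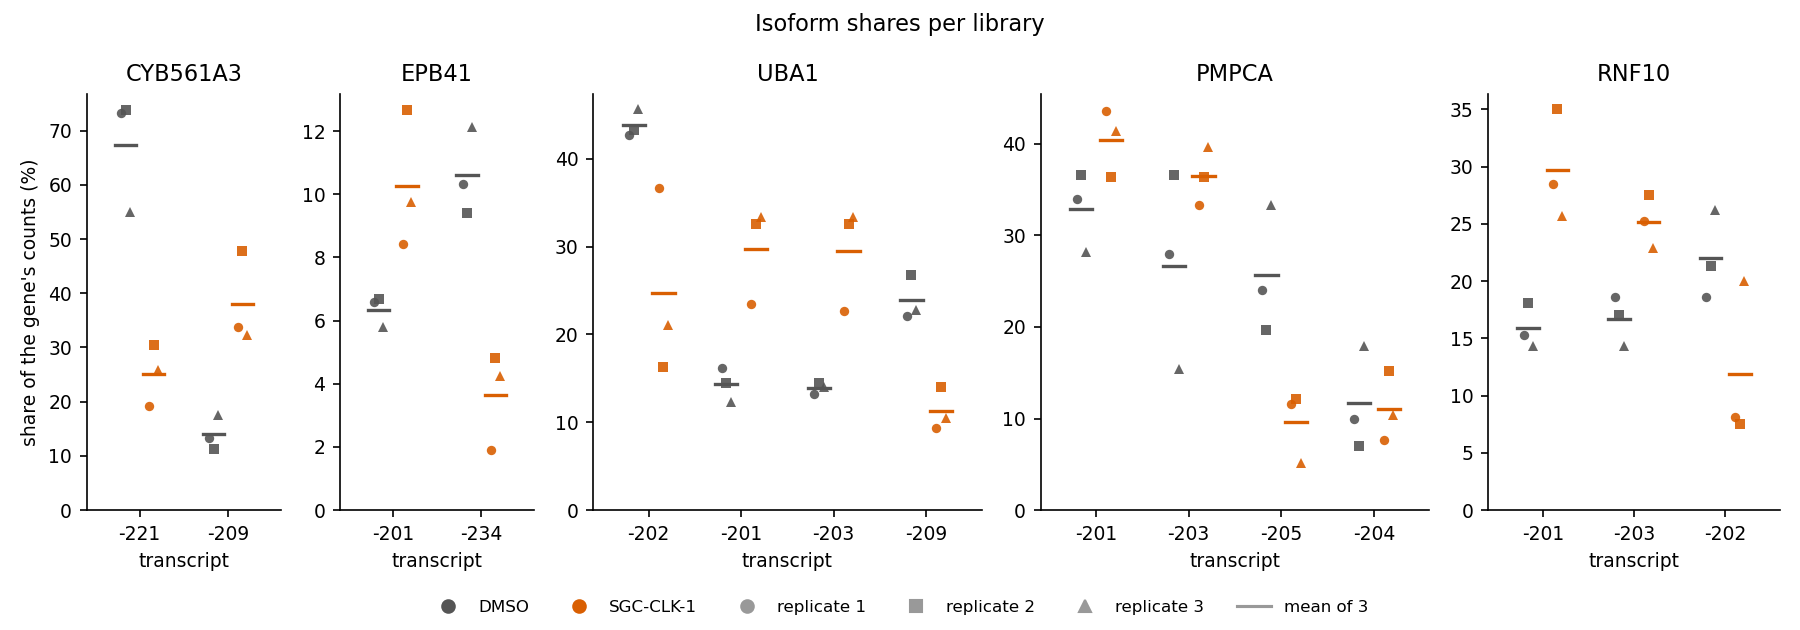
Share of each named isoform in the counts of its gene (vertical axes, percent, each panel with its own scale) in the 3 DMSO and 3 SGC-CLK-1 libraries, with a point for each library, a shape for each replicate and a line for the mean of 3. CYB561A3-221 lies at 55.0% to 73.8% with DMSO and 19.1% to 30.4% with SGC-CLK-1, and the points of PMPCA-204 overlap.

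Among the 20 isoforms that passed the filter, the shares of 12 did not overlap between the groups, 5 lower and 7 higher with SGC-CLK-1. Over all transcripts in the usage test 15.1% had shares that did not overlap. Since the genes were selected on this contrast, nothing is read from the difference. The calls that the selection drew on are given for completeness and restate it. At an adjusted p under 0.05 edgeR called usage in 1 of the 5 genes, CYB561A3, and in 0.277% of all genes tested. It called the counts of 2 of the 20 isoforms, CYB561A3-221 and EPB41-234, and of 3.95% of all transcripts tested. The usage call of CYB561A3 rests on the 2 isoforms of the gene past the filter, CYB561A3-221 and CYB561A3-209. Each passed the filter through the group where it was higher, as did EPB41-234 and PMPCA-205. Nothing is therefore read from these calls. The usage call was absent when any SGC-CLK-1 library, or DMSO replicate 1 or 2, was left out, and with no filter. EPB41-234 was not called without SGC-CLK-1 replicate 1, where UBA1-202 was called. With at least 10 counts required in every library none of these calls remained, because CYB561A3-221, CYB561A3-209 and EPB41-234 did not pass that filter.

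What the isoforms shared was described by 2 features of their annotation. The values are sums of the isoform shares that the selection used and are not independent of it: for UBA1 the protein-coding share is what UBA1-209 leaves of the total, and the intron-keeping share is that of UBA1-202 and UBA1-209 together. The first was the annotated class. The share of protein-coding isoforms was higher in all SGC-CLK-1 libraries than in all DMSO libraries for EPB41, UBA1, PMPCA and RNF10. For UBA1 this class includes UBA1-202, whose own share was lower. For PMPCA the mean share of the NMD class, which is PMPCA-203 alone, was also higher. It was 36.5% ± 3.16 with SGC-CLK-1 and 26.7% ± 10.7 with DMSO, with overlap. Of 1620 other genes in the usage test with both kinds of transcript, 6.11% had a higher protein-coding share without overlap and 7.35% a lower one, and nothing is read from this difference in genes selected on the same contrast. The share was 88.7% ± 2.38 against 76.1% ± 2.55 for UBA1, 51.5% ± 0.22 against 44.6% ± 1.35 for PMPCA and 62.4% ± 6.72 against 41.3% ± 5.10 for RNF10. For CYB561A3 it was 92.9% ± 6.28 against 95.8% ± 3.82 and the groups overlapped, since CYB561A3-221 and CYB561A3-209 are both annotated as protein coding although each keeps an intron.

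The second feature was intron sequence. An isoform was counted as intron-keeping where exons that overlap a canonical exon also held at least 100 bases of canonical introns. The intron-keeping share was 36.0% ± 8.79 with SGC-CLK-1 and 67.7% ± 2.76 with DMSO for UBA1 and 24.0% ± 2.18 against 29.0% ± 2.51 for EPB41, without overlap in either gene. It was 22.7% ± 4.22 against 39.5% ± 13.6 for PMPCA, 77.7% ± 12.2 against 85.3% ± 7.92 for CYB561A3 and 8.08% ± 4.58 against 8.58% ± 4.98 for RNF10, with overlap in each. These values depended on the limit. With at least 500 intron bases the EPB41 share was 1.91 percentage points higher with SGC-CLK-1 and the UBA1 difference went from -31.8 to -19.2, and with at least 1 base the RNF10 share was 7.72 percentage points higher. In all other genes together, intron-keeping transcripts held 15.4%, 15.4% and 15.5% of the counts in the SGC-CLK-1 libraries and 15.2%, 15.3% and 15.3% in the DMSO libraries. That difference of 0.17 percentage points gave p = 0.1 in a two-sided exact permutation test, the smallest p that 3 against 3 libraries allow. The same exact test gave p = 0.9 with at least 1 intron base, where the difference was -0.0652, and p = 0.5 with at least 500. Of 1463 other genes in the usage test with both kinds of transcript, the mean intron-keeping share was lower with SGC-CLK-1 in 675 and higher in 788, with a median difference of 0.19 percentage points. With at least 500 intron bases it was lower in 468 and higher in 460. In 5.19% of the 1463 genes the share was lower without overlap and in 9.64% it was higher without overlap.

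**Figure D3:**
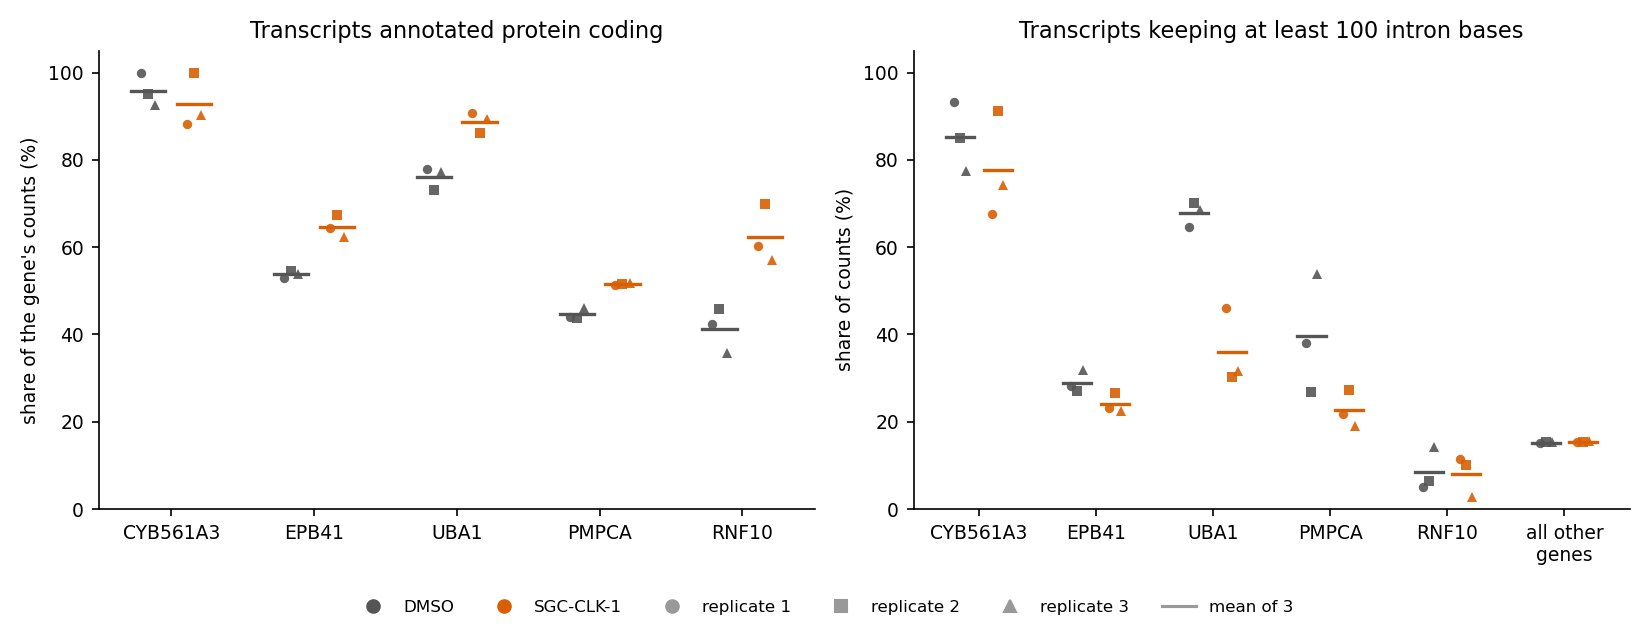
Share of counts (vertical axes, percent) on isoforms annotated as protein coding (left) and on intron-keeping isoforms (right) for each gene, with a point for each of the 3 libraries a group and a line for the mean. The protein-coding share is higher in every SGC-CLK-1 library for EPB41, UBA1, PMPCA and RNF10, and all other genes together sit between 15.2% and 15.5% on the right.

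The cDNA was primed with oligo(dT), which can also anneal to runs of A inside a transcript, and the genome just after the annotated ends was therefore read. The 30 bases after the end are shown for 4 isoforms with a run of at least 6 A, in capitals, and for the canonical isoforms of PMPCA and RNF10, which have none. They start at chr9:136420934, chr12:120574939, chr1:29073094, chr1:29054515, chr9:136423762 and chr12:120577589 in that order, on the plus strand.
PMPCA-205: AAAAAAAAAAAAAAgtgtagcatctctgcg
RNF10-202: AAAAAActggagggtactaggccgggcaca
EPB41-229: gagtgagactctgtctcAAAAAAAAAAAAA
EPB41-226: ctaactatgttttgattatattAAAAAAAA
PMPCA-201: gcacggtgttttccttctcgcctggggagg
RNF10-201: ttgtgagctttttgtttttttaagttcatt

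These 4 were the only isoforms of the 20 with such a run, 20.0%, and among the 7404 other tested transcripts the share was 5.06%, or 14.5% of the 642 annotated as retained introns. The mean shares of these 4 were lower with SGC-CLK-1, and those of EPB41-226, EPB41-229 and RNF10-202 overlapped between the groups. EPB41-225, below the filter, has a run of 14 A after its end, and its share was higher with SGC-CLK-1, 4.17% against 2.19%, without overlap. CYB561A3-221, EPB41-234 and UBA1-209, which had lower shares as well, have no such run. The polyadenylation signals AATAAA or ATTAAA, searched on the transcript strand only, were found in the last 50 bases of 11 of the 20 isoforms and of 71.2% of the other tested transcripts, or 55.3% of those annotated as retained introns. The part of internal priming in these shares was not tested.

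The gene totals are given as a description, since the genes were selected on transcript usage in the same contrast. EPB41 totalled 571 ± 91.2 CPM with SGC-CLK-1 and 593 ± 86.8 with DMSO, UBA1 161 ± 39.6 and 185 ± 15.9, PMPCA 126 ± 33.6 and 133 ± 14.5, and RNF10 135 ± 51.7 and 160 ± 34.2, all with overlap. CYB561A3 totalled 107, 65.8 and 86.2 CPM in the SGC-CLK-1 libraries and 155, 168 and 124 in the DMSO libraries, without overlap, with a log2 fold change of -0.75 (SE 0.28). None of the 5 totals was called by edgeR, 1 had an unadjusted p under 0.05, DESeq2 called 0, and edgeR called 0.236% of all genes. Over the 6 libraries the totals most like CYB561A3 were GPAT4 and C19orf25 (Pearson r of log2 CPM 0.99 for both), those most like EPB41 were STAM2 (0.99) and MAP2K4 (0.98), those most like UBA1 were PUS3 (0.98) and HDGF (0.98), those most like PMPCA were ABCA5 (0.97) and ASXL1 (0.96), and those most like RNF10 were PSMD12 (0.99) and DDX55 (0.99). These are the highest of many genes over 6 points that share library depth.

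**Figure D4:**
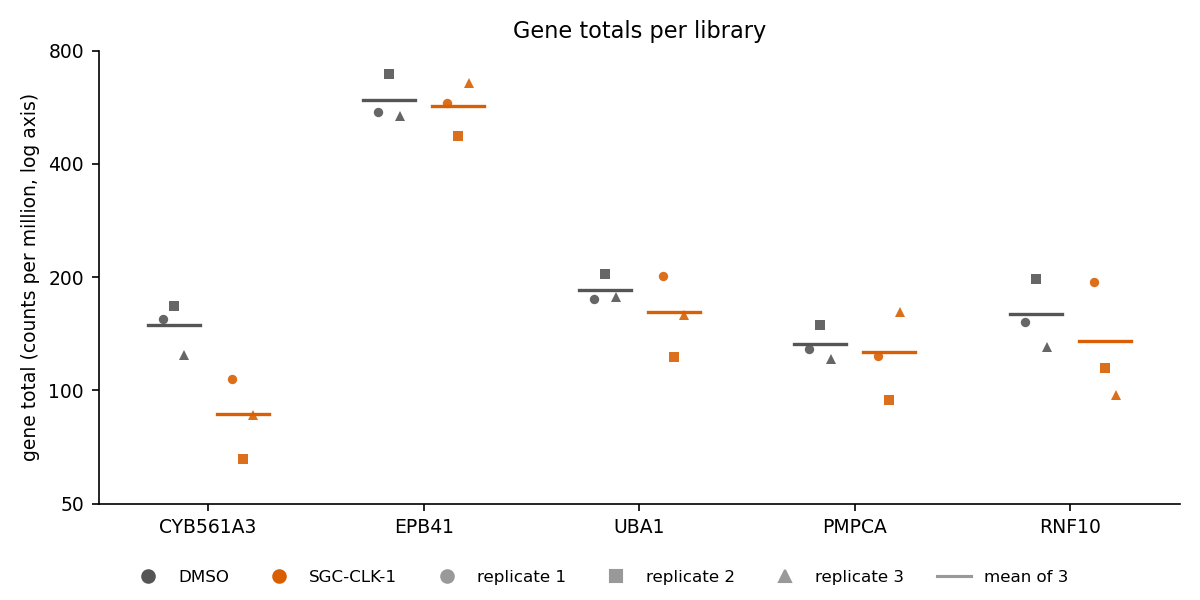
Gene totals in CPM (vertical axis, log scale) of the 5 genes in each library, with a line for the mean of 3. CYB561A3 lies between 65.8 and 107 with SGC-CLK-1 and between 124 and 168 with DMSO, and the groups of the other 4 genes overlap.

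Genes of the same pathways, listed by function, were read from the gene totals with edgeR's quasi-likelihood test, adjusted over all genes. The median log2 fold change over all genes tested was -0.001, and 49.9% were above 0. An unadjusted p under 0.05 was reached by 13.9% of them. In the ubiquitin and ubiquitin-like activation list, 17 of 22 genes were tested, and edgeR called 0, with 2 at an unadjusted p under 0.05, while DESeq2 called 1 of the 13 with an adjusted p, against 3.56% of all genes with one. UBA2, a subunit of the enzyme that activates SUMO, stood at 133 ± 8.74 CPM with SGC-CLK-1 and 48.9 ± 26.4 with DMSO, a log2 fold change of 1.41 (SE 0.36, edgeR adjusted p = 0.097), and it is the gene that DESeq2 called. Its counts were 78, 48 and 50 with SGC-CLK-1 and 26, 29 and 6 with DMSO, without overlap. Its transcript UBA2-201, picked after its values were seen, had a log2 fold change of 1.42 (SE 0.40). The counts of UBA2-201 were 26, 16 and 15 with SGC-CLK-1 and 8, 10 and 2 with DMSO, so it passed the filter through the SGC-CLK-1 group. It was the only 1 of the 43 tested transcripts of this list that edgeR called, against 3.95% of all transcripts. Because of that filter and its choice, nothing is read from the call. UBB, a polyubiquitin gene, had a log2 fold change of -0.49 (SE 0.21, adjusted p = 0.30). The list's median was -0.06, with 8 genes above 0 and 9 below.

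In the list of mitochondrial presequence import and processing, 17 of 22 genes were tested, edgeR called 0, 2 had an unadjusted p under 0.05 and DESeq2 called 0 of 7 with an adjusted p. The median was -0.29, with 5 above 0 and 12 below. TIMM44, which tethers the import motor to the inner membrane, had a log2 fold change of -0.94 (SE 0.30, adjusted p = 0.16), and XPNPEP3, an aminopeptidase, one of -0.73 (SE 0.33, adjusted p = 0.35). For ribosome stalling and 40S ubiquitination, 18 of 23 genes were tested, edgeR called 0, 2 had an unadjusted p under 0.05 and DESeq2 called 0 of 12 with an adjusted p, and the median was -0.11 with 8 above 0 and 10 below. NEMF, a factor of ribosome-associated quality control, had -0.78 (SE 0.22, adjusted p = 0.12), and TCF25 had -0.60 (SE 0.27, adjusted p = 0.34).

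In the list of the cytochrome b561 family and iron handling, 6 of 15 genes were tested, edgeR called 0, 1 had an unadjusted p under 0.05 and DESeq2 called 0 of 5 with an adjusted p, and the median was 0.02 with 3 genes on each side. FTL, the ferritin light chain, had a log2 fold change of -0.58 (SE 0.22, adjusted p = 0.25), and TFRC, the transferrin receptor, one of 0.37 (SE 0.24, adjusted p = 0.53). In the list of the 4.1 family and membrane skeleton, 8 of 20 genes were tested, edgeR called 0, 0 had an unadjusted p under 0.05 and DESeq2 called 0 of 6 with an adjusted p, and the median was 0.07 with 4 on each side. EPB41L2, a relative of EPB41, had 0.52 (SE 0.31, adjusted p = 0.50), and ADD2, an adducin, had 0.51 (SE 0.30, adjusted p = 0.50).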

How the data were processed

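The 6 RM82 libraries were analysed. The authors mapped nanopore reads to human transcripts (hg38) with minimap2 (version 2.22 in the submitters' processing notes), keeping secondary alignments, collapsed UMIs, and deposited raw counts per transcript. Which deduplication method made the files is not given in the sources used here. A transcript not listed in a library was given 0. Of 93530 listed identifiers, 86362 matched GENCODE release 44 without version, and its exon models and canonical transcripts were used.

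The share of an isoform is its count divided by the summed count of its gene in that library, with exact (Clopper-Pearson) 95% intervals. Counts were scaled by TMM and fitted by the quasi-likelihood test of edgeR 4.0.16 under R 4.3.3 (low counts removed by filterByExpr, minimum 10 and total 15, and a Benjamini-Hochberg threshold of 0.05), and usage with diffSpliceDGE and Simes p-values. The SE is the log2 fold change divided by the root of F. DESeq2 1.42.0 and limma 3.58.1 were alternatives, and scipy 1.17.1 with Python 3.11.15 gave intervals and permutation tests. Functions were tested on simulated data.

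The genes and lists were chosen with earlier results of these data known. The named isoforms have at least 10% of the gene's pooled counts, or the smallest usage p, or the largest rise or fall in share past the filter, and EPB41-225, EPB41-226, EPB41-229 and EPB41-231 were added after their values were seen, as was the intron-keeping feature. Of each list the 2 genes with the smallest p are named. Some exon sequences are not reported here, and the remaining data of the series were not used here.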

Additional observations from a re-analysis of the deposited data

How the results depend on the processing

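Counts of calls over all features depended on the processing. Usage called 5 genes, and 1 with at least 10 counts in every library, 2 with no filter and 1 to 5 when single libraries were left out. Without SGC-CLK-1 replicate 1 or DMSO replicate 1 it was 1, and without SGC-CLK-1 replicate 2 or 3 it was 2. Transcript counts called 310 (145 higher, 165 lower), 173 with at least 10 counts, 162 with no filter, 98 with DESeq2 and 81 to 363 when libraries were left out. Scaling by library size only gave 295 (165 higher, 130 lower). Gene totals called 15 (7 higher, 8 lower), 28 (20 higher, 8 lower) with library size only, 64 with at least 10 counts, 169 with no filter, 112 with DESeq2 and 1 to 21 when libraries were left out. Same-numbered libraries did not deviate together (correlations 0.06, 0.09 and -0.002), so the numbers were not treated as pairs. The replicate block gave 4 genes for usage, CYB561A3 not among them, 427 transcripts and 36 gene totals.

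The share differences of the 15 isoforms named by the rule kept their direction under each alternative run except PMPCA-204, which ranged from -2.91 to 2.54 percentage points when single libraries were left out. The difference of PMPCA-203 went from 9.78 to 4.14 without DMSO replicate 3 and to 14.8 without DMSO replicate 2. Its usage log2 fold change went from 0.33 to 0.19 and 0.60 without the same libraries. With only transcripts past the filter in the denominator, the difference went from 23.9 to 42.6 for CYB561A3-209, from 3.93 to 7.56 for EPB41-201, from -6.97 to -12.7 for EPB41-234 and from -10.2 to -22.7 for RNF10-202. The usage log2 fold change of RNF10-203 was 0.35 and ranged from -0.17 to 0.43, the negative value without DMSO replicate 2. That of RNF10-201 went from 0.61 to 0.22 without the same library, that of UBA1-202 from -0.60 to -1.21 without SGC-CLK-1 replicate 1, that of EPB41-201 from 0.68 to 0.12 with at least 10 counts, and that of RNF10-203 to 0.61 with no filter. With at least 500 intron bases the EPB41 difference was 1.91, with at least 1 the RNF10 difference was 7.72 and that of all other genes was -0.0652 percentage points. The causes were not tested. Counts of 3 to 59 per library limit the precision of single shares.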
